A study of Mus musculus with 10 samples.

Results

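The heat shock genes encode the chaperones of the cytosol and the mitochondrial matrix, their cochaperones and the heat shock factors that transcribe them. A set of 32 such genes was found by Entrez ID among the 27179 genes of the counts table, and all 32 had enough counts to be tested. They were divided by their known regulation into 18 inducible genes and 14 constitutive genes. The set and its classes were chosen with earlier results of these data known, so contrasts between the classes are no independent test. RNA of whole mouse lungs was sequenced from 5 EpithelialKO mice and 5 Flox mice, each a separate animal. EpithelialKO mice (numbers 17, 18, 20, 21 and 22) were Shh Cre/+ and IRE1α fl/fl, so that Cre made from the Shh locus can delete IRE1α in the epithelium. Flox mice (numbers 2 to 6) were Shh +/+ and IRE1α fl/fl. Both groups therefore carried the floxed alleles, and the Shh Cre allele and the deletion cannot be told apart. The gene for IRE1α, the sensor of unfolded protein in the endoplasmic reticulum, is Ern1. The labels state no age, strain, sex or batch.

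Totals ran from 16234895 to 18870247 counts in EpithelialKO mice and from 14983829 to 21224412 in Flox mice, with the lowest total in Flox mouse 5. Ern1 averaged 17.3 ± 6.52 CPM, counts scaled to a common library size, in EpithelialKO lungs and 16.8 ± 5.28 CPM in Flox lungs (SD, n = 5 each), and its log2 fold change was 0.04 ± 0.27 (SE). Whole-lung counts summed over the gene thus did not show the deletion, and reads of the floxed exon were not analysed here. Xist, made from an inactive X chromosome, was counted 3949 and 4866 times in Flox mice 4 and 6, where genes of the Y chromosome were at 0. The 8 other mice had at most 61 counts of Xist and at least 2462 of Y-linked genes. By these counts, called sex class below, the EpithelialKO mice were all of the same class. The Flox mice were of both classes, so sex class was not balanced between the groups. Flox mouse 5 stood apart in many of the heat shock genes, so the results are given with and without it. In whole-lung RNA, fewer cells of a type and less RNA per cell cannot be told apart.

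In unstressed cells heat shock factor 1 (HSF1) is held inactive by chaperones. When unfolded protein occupies those chaperones, HSF1 forms trimers and binds heat shock elements, arrays of the unit nGAAn in alternating orientation, and transcription of the inducible genes rises within minutes. Constitutive chaperones such as HSC70 and HSP90β are abundant without stress and fold new proteins in every cell, including the secretory epithelium of the lung. The unfolded protein response run by IRE1α acts on chaperones of the endoplasmic reticulum, a separate compartment.

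The elements can be read in the promoters. RefSeq start sites on GRCm38.p6 gave a window for 25 of the 32 genes, from 250 bases before the start to 50 after it; the 7 without a window were Hspa8, Hspa9, Cryab, Hsp90aa1, Hsp90ab1, Hsf1 and St13. Where a gene had several starts, the window with the most matches was taken. A 3-unit element, GAANNTTC followed directly by NNGAA or TTCNNGAA followed directly by NNTTC, was present in 4 of 16 inducible genes (25%), in 0 of 9 constitutive genes and in 0.662% of 27025 genes. A 2-unit element, GAANNTTC or TTCNNGAA, which is contained in every 3-unit one, was present in 12 of 16 inducible genes (75%), in 2 of 9 constitutive genes (22.2%) and in 17% of genes. Both strands were read, which for these motifs covers the same matches. The 3-unit matches are shown because they are the most complete elements in the set, each on the strand of its gene with the element in capitals.
Hsph1 (chr5:149636288-149636300, minus strand): cagaTTCTGGAAAGTTCt
Hspd1 (chr1:55088059-55088076, minus strand): ggccTTCCGGAAGGTTCTAGAAcgga
Hspe1 (chr1:55088059-55088076, plus strand): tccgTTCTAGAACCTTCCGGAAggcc
Chordc1 (chr9:18292263-18292285, plus strand): ccgGAACGTTCGGGAAAATTCCTGAAgca
Hspd1 and Hspe1 encode the mitochondrial chaperonin HSP60 and its lid HSP10 and are transcribed in opposite directions from a shared promoter, so that the lines for the 2 genes are the same bases read from either strand. In Hsph1 the element lies 37 to 49 bases after the start, and in Chordc1 it spans the start. A match describes the letters and does not show that HSF1 bound there.

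The 250 bases upstream of the paired inducible HSP70 genes are shown because these genes had the widest range between mice, and those of the constitutive gene Hspa4 are shown for contrast.
Hspa1a (chr17:34972157-34972406, minus strand): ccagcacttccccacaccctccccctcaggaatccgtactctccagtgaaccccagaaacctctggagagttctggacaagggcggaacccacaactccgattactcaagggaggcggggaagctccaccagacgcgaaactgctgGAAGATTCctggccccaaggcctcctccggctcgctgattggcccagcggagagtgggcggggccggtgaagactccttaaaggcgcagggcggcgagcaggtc
Hspa1b (chr17:34959239-34959488, minus strand): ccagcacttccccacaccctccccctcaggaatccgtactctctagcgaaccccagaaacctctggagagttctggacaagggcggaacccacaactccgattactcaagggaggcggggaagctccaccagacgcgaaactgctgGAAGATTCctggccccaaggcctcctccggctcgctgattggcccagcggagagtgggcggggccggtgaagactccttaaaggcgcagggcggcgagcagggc
Hspa4 (chr11:53300480-53300729, minus strand): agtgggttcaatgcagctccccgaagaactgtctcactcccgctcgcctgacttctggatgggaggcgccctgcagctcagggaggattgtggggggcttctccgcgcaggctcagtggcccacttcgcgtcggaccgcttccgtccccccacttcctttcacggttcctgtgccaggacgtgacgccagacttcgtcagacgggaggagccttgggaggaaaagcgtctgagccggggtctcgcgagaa
The capitals mark the 2-unit element GAAGATTC, which stands 104 to 97 bases upstream of the start in both Hspa1a and Hspa1b. The upstream sequences of these genes differ at 3 of 250 bases (98.8% identical). No 2-unit or 3-unit match was found in the Hspa4 window.

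No heat shock gene passed the test for a difference between EpithelialKO and Flox lungs after adjustment over all genes. In edgeR's quasi-likelihood test 6 of 15301 genes passed at an adjusted p of 0.05 (0.0392%), and 0 of the 32 heat shock genes did; the lowest adjusted p among them was 0.204, for Hspa4l. DESeq2's Wald test passed 279 of 12627 genes (2.21%) and also 0 heat shock genes. At an unadjusted p of 0.05, 6 of the 32 were higher in EpithelialKO (Hspa4l, Hsp90aa1, Hspb8, Hspa8, Fkbp4 and Hspd1), against 5.87% of all genes. At the same limit 0 of the 32 were lower, against 6.52% of all genes. The groups did not overlap in 1 of the 32, Dnaja2, against 3.12% of all genes.

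The sizes leaned one way without passing the test. The log2 fold change of EpithelialKO over Flox was positive in 26 of the 32 genes, with a median of 0.21, beside 0.00 for all genes tested. It was positive in 14 of 18 inducible genes (median 0.29) and in 12 of 14 constitutive genes (median 0.13). For a narrower class of 7 inducible genes (Hspa1a, Hspa1b, Hsph1, Hspb1, Dnajb1, Bag3 and Hsp90aa1) the median was -0.11. Without Flox mouse 5 the values of these 7 were all positive, from 0.18 for Bag3 to 1.82 for Hspa1b. These counts describe genes that vary together between mice, as the plot of all genes by mouse shows, and are not 32 separate observations.

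**Figure D1:**
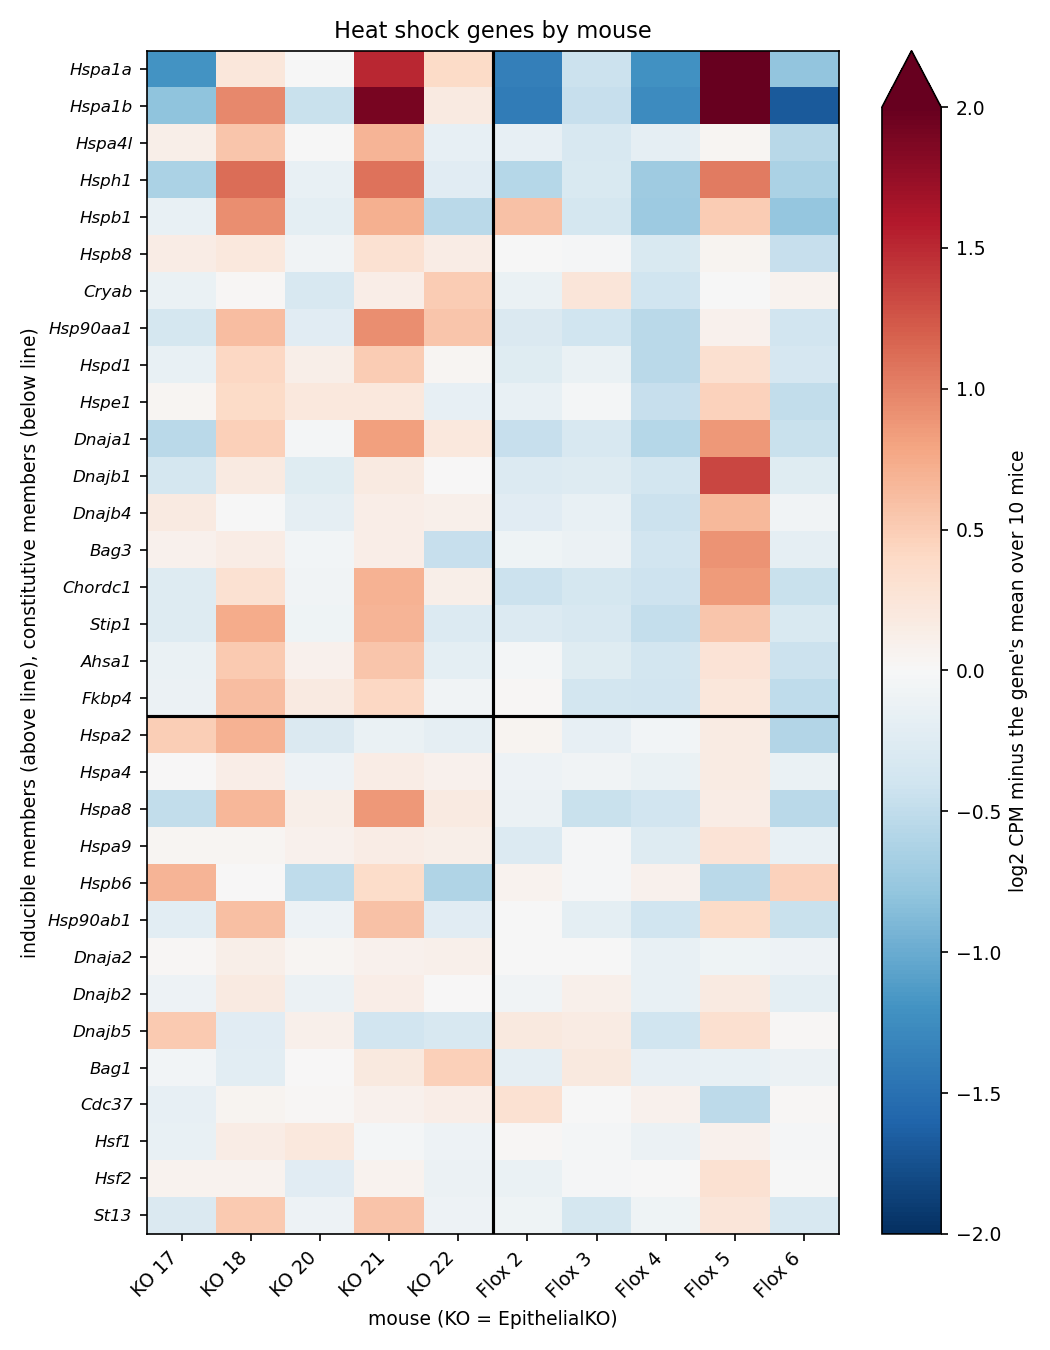
Heat map of the 32 heat shock genes (rows, inducible above constitutive) in the 10 mice (columns, EpithelialKO left of Flox); the colour is the log2 CPM minus the gene's mean over the mice. EpithelialKO mice 18 and 21 and Flox mouse 5 are high across most inducible rows, and Flox mice 4 and 6 are each the lowest mouse in 8 of the 18.

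The inducible HSP70 proteins are the classic products of the heat shock response and are encoded by the intronless neighbours Hspa1a and Hspa1b. Hspa1a (Entrez 193740, chr17:34969359-34972156) had 7.09, 19.0, 16.2, 46.4 and 21.1 CPM in EpithelialKO mice 17, 18, 20, 21 and 22, against 6.28, 12.1, 7.06, 122 and 9.40 CPM in Flox mice 2 to 6. Hspa1b (Entrez 15511, chr17:34956429-34959238) had 13.6, 46.5, 17.4, 88.3 and 26.9 CPM in EpithelialKO mice, against 9.03, 17.4, 9.996, 191 and 7.42 CPM in Flox mice. Flox mouse 5 was the highest mouse for both genes, above all EpithelialKO mice, while the other 4 Flox mice lay in the low range. The log2 fold change was -0.50 ± 0.98 (SE) for Hspa1a and -0.27 ± 1.08 for Hspa1b (edgeR adjusted p = 0.886 and 0.957). Without Flox mouse 5 it was 1.34 ± 0.48 for Hspa1a and 1.82 ± 0.62 for Hspa1b (adjusted p = 0.228 for both), so that this mouse decided the sign of the edgeR value. That value follows the group means of CPM, in which a very high mouse weighs heavily. For means taken on the log scale the sign was the other way: with all mice, EpithelialKO was above Flox in both genes.

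The genes share long identical stretches. Of the 50-base windows of their transcripts, 60.35% in Hspa1a and 62.31% in Hspa1b also occur in transcripts of other genes, so the split of reads between them is uncertain. Their sum was 20.7, 65.5, 33.6, 135 and 48.1 CPM in EpithelialKO mice, against 15.3, 29.4, 17.1, 313 and 16.8 CPM in Flox mice. The summed log2 fold change was -0.36, with a 95% interval from -2.74 to 2.01. The data thus leave a wide range of differences possible for inducible HSP70.

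Hspa8 encodes HSC70, the constitutive cytosolic HSP70. It had 1158, 2575, 1765, 2959 and 1848 CPM in EpithelialKO mice, against 1495, 1199, 1249, 1796 and 1116 CPM in Flox mice. EpithelialKO mice 18, 21 and 22 were the 3 highest, and EpithelialKO mice 17 and 20 lay within the Flox range. Its log2 fold change was 0.59 ± 0.22 (edgeR adjusted p = 0.299). Of the 50-base windows of Hspa8, 67.33% occur in transcripts of other genes, so reads of copies may be counted with it. Hspa2, best known from the testis, averaged 16.4 ± 5.31 CPM in EpithelialKO and 13.7 ± 2.53 CPM in Flox lungs. Per kilobase of exon, Hspa8 stood at 861 CPM in EpithelialKO and 573 CPM in Flox lungs, the highest level of the 32 genes in each group, while Hspa1a stood at 7.40 CPM per kilobase in EpithelialKO and 10.6 in Flox lungs.

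The HSP110 proteins are nucleotide exchange factors of HSP70. Hsph1 and Hspa4l were classed as inducible. Hsph1 had 62.1, 209, 87.1, 206 and 82.9 CPM in EpithelialKO mice, against 65.0, 78.5, 59.3, 198 and 62.1 CPM in Flox mice. Its 3 high mice, EpithelialKO 18 and 21 and Flox 5, were well apart from the other 7, of which the highest had 87.1 CPM. Hspa4l had the lowest unadjusted p of the 32 genes, 0.00565, with 59.2, 80.2, 54.4, 86.8 and 48.8 CPM in EpithelialKO mice, against 48.7, 43.5, 48.1, 56.0 and 36.9 CPM in Flox mice. Its log2 fold change was 0.50 ± 0.16 (edgeR adjusted p = 0.204), and the groups overlapped between 48.8 and 56.0 CPM. The constitutive Hspa4 averaged 193 ± 13.1 CPM in EpithelialKO and 179 ± 16.0 CPM in Flox lungs.

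HSP90 matures kinases and steroid receptors, and has an inducible α form and a constitutive β form. Hsp90aa1 had 343, 676, 375, 837 and 649 CPM in EpithelialKO mice, against 361, 333, 303, 465 and 337 CPM in Flox mice. It had the largest positive fold change of the 32, a log2 value of 0.68 ± 0.23 (edgeR adjusted p = 0.26); EpithelialKO mice 18, 21 and 22 exceeded every Flox mouse and mice 17 and 20 did not. Hsp90ab1 averaged 1736 ± 530 CPM in EpithelialKO and 1432 ± 354 CPM in Flox lungs, with a log2 fold change of 0.28 ± 0.21 (adjusted p = 0.625). Its high mice were EpithelialKO 18 and 21 and Flox 5. Of the 50-base windows of Hsp90aa1, 50.13% occur in transcripts of other genes.

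J-domain proteins deliver substrates to HSP70 and start its ATPase. Dnajb1, the inducible HSP40, had 50.1, 72.5, 54.2, 72.5 and 64.5 CPM in EpithelialKO mice, against 53.0, 53.7, 49.8, 162 and 54.2 CPM in Flox mice. Flox mouse 5 had more than any other mouse, and the 4 other Flox mice lay between 49.8 and 54.2 CPM. The log2 fold change was -0.25 ± 0.35 with all mice (edgeR adjusted p = 0.827) and 0.25 ± 0.12 without Flox mouse 5 (adjusted p = 0.312). Dnaja1 had 199, 401, 282, 511 and 333 CPM in EpithelialKO mice, against 209, 231, 195, 527 and 212 CPM in Flox mice. Dnaja2, its constitutive relative, was the 1 gene whose groups did not overlap, with 164, 175, 167, 171 and 173 CPM in EpithelialKO mice, against 161, 160, 145, 152 and 151 CPM in Flox mice. The distance between its groups was small beside the ranges of the inducible genes, and it did not pass the test (log2 fold change 0.14 ± 0.08, adjusted p = 0.464). Dnajb5 averaged 21.2 ± 6.06 CPM in EpithelialKO and 22.7 ± 3.96 CPM in Flox lungs, and Dnajb2 and Dnajb4 both had log2 fold changes of 0.05.

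**Figure D2:**
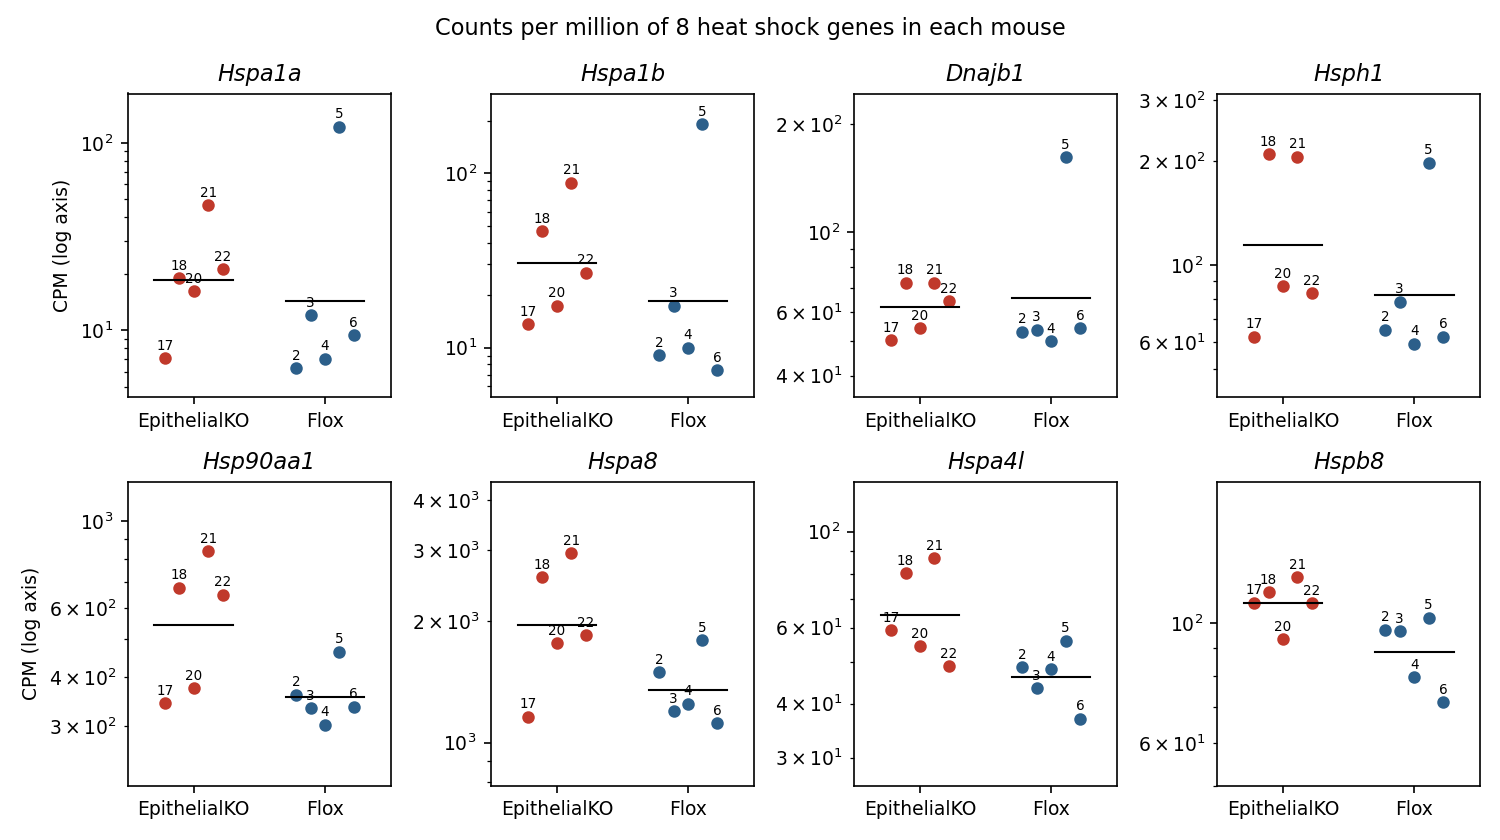
CPM on a log axis in each mouse, EpithelialKO left of Flox, for 8 heat shock genes; each point is 1 mouse with its number, and lines are means taken on the log scale. Flox mouse 5 is far above the other Flox mice in Hspa1a (122 CPM), Hspa1b (191 CPM) and Dnajb1 (162 CPM), and it is inside the EpithelialKO range in Hsp90aa1 and Hspa8.

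Small heat shock proteins hold unfolding proteins without ATP. Hspb8, the partner of BAG3 in selective autophagy, had 109, 114, 93.4, 122 and 109 CPM in EpithelialKO mice, against 97.3, 96.8, 79.5, 102 and 71.4 CPM in Flox mice. EpithelialKO mouse 20 alone of its group lay inside the Flox range, and the log2 fold change was 0.29 ± 0.11 (edgeR adjusted p = 0.279). Hspb1 (HSP25 in the mouse) had 176, 374, 171, 321 and 135 CPM in EpithelialKO mice, against 293, 153, 119, 280 and 115 CPM in Flox mice. Here Flox mouse 2 was also high, unlike in Hspa1a or Hsph1. A pseudogene of Hspb1 shares much of its sequence: 48.83% of its 50-base windows occur in other transcripts. Cryab, αB-crystallin, averaged 333 ± 75.2 CPM in EpithelialKO and 310 ± 50.1 CPM in Flox lungs, and Hspb6 averaged 5.51 ± 2.10 CPM in EpithelialKO and 5.40 ± 1.29 CPM in Flox lungs. Cryab and Hspb6 are also muscle proteins, and the summed CPM of 8 cardiomyocyte markers ran from 65.8 to 254 in EpithelialKO and from 90.6 to 231 in Flox lungs.

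In the mitochondrial matrix, Hspa9 (mortalin) pulls in and folds imported proteins, and HSP60 with HSP10 encloses them. Hspd1 (HSP60) had 148, 217, 176, 233 and 168 CPM in EpithelialKO mice, against 137, 149, 112, 203 and 130 CPM in Flox mice. Its log2 fold change was 0.36 ± 0.15 (edgeR adjusted p = 0.349), and its high mice were EpithelialKO 18 and 21 and Flox 5. Hspe1 (HSP10), across the shared promoter shown above, averaged 124 ± 17.4 CPM in EpithelialKO and 105 ± 30.3 CPM in Flox lungs and had the same 3 mice on top. Hspa9 averaged 197 ± 6.60 CPM in EpithelialKO and 176 ± 28.8 CPM in Flox lungs, and its highest mouse was Flox 5, at 223 CPM. Hspd1 and Hspe1 also share 39.74% and 36.14% of their 50-base windows with other transcripts.

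The cochaperones pass substrates from HSP70 to HSP90 or set their release. Fkbp4 (FKBP52, a cochaperone of steroid receptors) had 270, 448, 330, 387 and 279 CPM in EpithelialKO mice, against 295, 225, 224, 340 and 204 CPM in Flox mice, and a log2 fold change of 0.41 ± 0.16 (edgeR adjusted p = 0.308). Bag3 had 59.6, 62.6, 54.1, 61.5 and 41.0 CPM in EpithelialKO mice, against 52.7, 52.1, 43.0, 105 and 49.5 CPM in Flox mice, so its log2 fold change of -0.11 ± 0.22 became 0.18 ± 0.12 without Flox mouse 5. Chordc1, Stip1 (HOP, the bridge between HSP70 and HSP90) and Ahsa1 (an activator of the HSP90 ATPase) had log2 fold changes of 0.25, 0.35 and 0.34. In these 5 cochaperones EpithelialKO mice 18, 20 and 21 were above Flox mice 2, 3, 4 and 6, and in Chordc1 every EpithelialKO mouse was. The constitutive Bag1 peaked elsewhere, at 738 CPM in EpithelialKO mouse 22, and Cdc37, which brings kinases to HSP90, was highest in Flox mouse 2 and lowest in Flox mouse 5. St13 (HIP) averaged 114 ± 31.6 CPM in EpithelialKO and 94.3 ± 16.4 CPM in Flox lungs.

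The transcription factors themselves varied little. Hsf1 averaged 35.5 ± 3.98 CPM in EpithelialKO and 34.7 ± 1.82 CPM in Flox lungs. Hsf2 averaged 12.4 ± 1.19 CPM in EpithelialKO and 12.9 ± 1.56 CPM in Flox lungs. Their log2 fold changes were 0.03 ± 0.11 and -0.05 ± 0.15. HSF1 is controlled mainly by its activity, which its own mRNA does not measure.

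**Figure D3:**
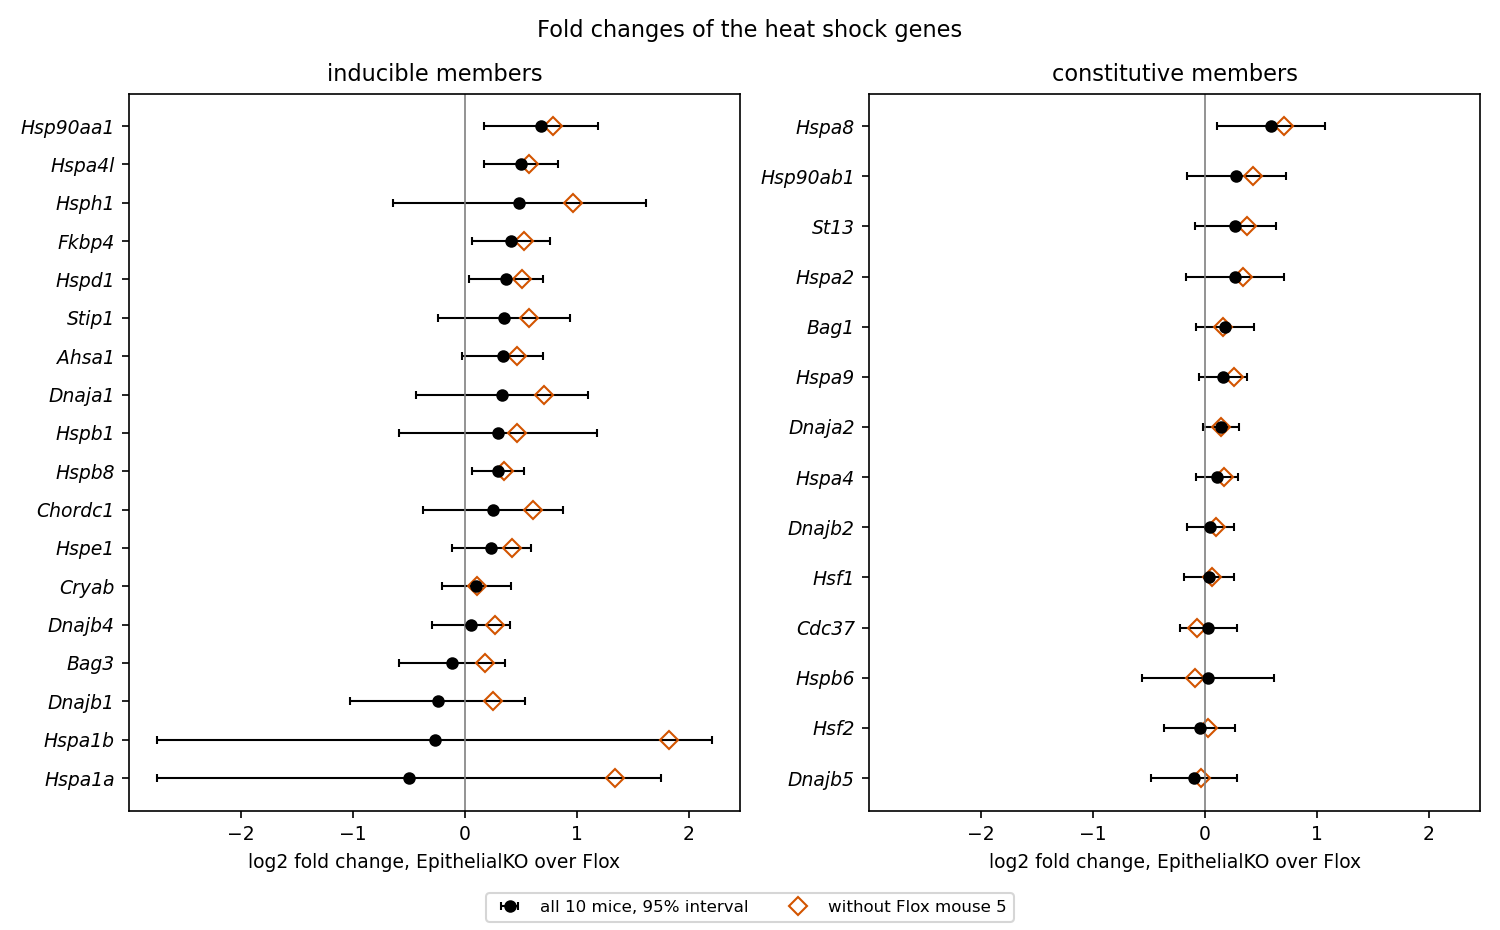
Log2 fold change (EpithelialKO over Flox, edgeR) of each heat shock gene with its 95% interval, with all 10 mice and without Flox mouse 5. The largest positive value with all mice is 0.68 for Hsp90aa1, and Hspa1a and Hspa1b move from -0.50 and -0.27 to 1.34 and 1.82 when Flox mouse 5 is left out.

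The same mice recurred at the top of the inducible genes. EpithelialKO mice 18 and 21 and Flox mouse 5, picked out after the values were seen, were the 3 highest mice in 11 of 18 inducible genes (61.1%), in 4 of 14 constitutive genes (28.6%) and in 1.28% of all genes tested. Flox mouse 5 was highest in 8 inducible genes, EpithelialKO mouse 21 in 5, EpithelialKO mouse 18 in 4 and EpithelialKO mouse 22 in 1. The rank of the 3 depended on the gene. Flox mouse 5 led in Hspa1a, Hspa1b, Dnajb1, Dnaja1, Dnajb4, Bag3, Chordc1 and Hspe1, whereas EpithelialKO mouse 18 or 21 led in Hsph1, Hsp90aa1, Hspd1, Stip1, Ahsa1, Fkbp4, Hspa4l, Hspb1 and Hspb8. At the low end, Flox mice 4 and 6, the pair with high Xist counts, were each the lowest mouse in 8 inducible genes. Without this pair, and with Flox mouse 5 kept, the median log2 fold change was 0.07 for the inducible genes and 0.09 for the constitutive genes.

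The inducible genes had a wide range. The ratio of the highest to the lowest mouse had a median of 2.41 over the 18 inducible genes, 1.62 over the 13 constitutive genes with a mean of at least 10 CPM and 1.598 over all 10217 genes at that level. It was 25.8 for Hspa1b and 19.4 for Hspa1a, which placed them at ranks 8 and 10 of the 10217 genes. Hsph1 (3.53), Dnajb1 (3.25) and Hspb1 (3.24) followed among the 32. Dnaja2 (1.20) and Hspa4 (1.22) had the narrowest ranges.

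For each mouse the mean log2 CPM of the constitutive genes was taken from that of the inducible genes. This difference was -0.20, 0.34, 0.05, 0.52 and 0.12 in EpithelialKO mice 17, 18, 20, 21 and 22, against -0.21, -0.10, -0.31, 0.79 and -0.25 in Flox mice 2 to 6. EpithelialKO mouse 17 lay with the low Flox mice, and Flox mouse 5 was the highest of all. The mean was 0.17 ± 0.28 in EpithelialKO and -0.02 ± 0.46 in Flox lungs (SD, n = 5 each), a difference of 0.19 that is smaller than either SD. Without Flox mouse 5 the Flox mean was -0.22 ± 0.09 (SD, n = 4) and the difference 0.39. Without Flox mice 4 and 6, and with Flox mouse 5 kept, the difference was 0.01.

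Inducible and constitutive relatives were also compared within each mouse as 7 log2 ratios. Each was tested by exact permutation of the mice between groups (two-sided, smallest possible p 0.00794), with adjustment over the 7. Group means were taken over the log2 ratios, so their differences need not match the edgeR fold changes. Hsp90aa1 over Hsp90ab1 differed the most by p. It was -1.94, -1.78, -1.93, -1.46 and -1.01 in EpithelialKO mice, against -2.08, -2.01, -1.95, -2.10 and -1.74 in Flox mice. All 5 EpithelialKO mice were above the Flox mean, by 0.35 ± 0.19 (SE) on average, but the test was not passed (exact permutation p = 0.0794, adjusted p = 0.556). The ratio of summed Hspa1a and Hspa1b to Hspa8 was -5.80, -5.29, -5.71, -4.46 and -5.26 in EpithelialKO mice, against -6.60, -5.34, -6.18, -2.52 and -6.04 in Flox mice, a difference of 0.03 ± 0.77 (adjusted exact permutation p = 0.976). The differences of the 5 other ratios lay between -0.22 for Bag3 over Bag1 and 0.37 for Hsph1 over Hspa4, with adjusted exact permutation p from 0.667 to 0.976. Without Flox mouse 5 the 7 differences were all positive, between 0.01 and 0.74, and the lowest adjusted exact permutation p over 126 assignments was 0.222.

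**Figure D4:**
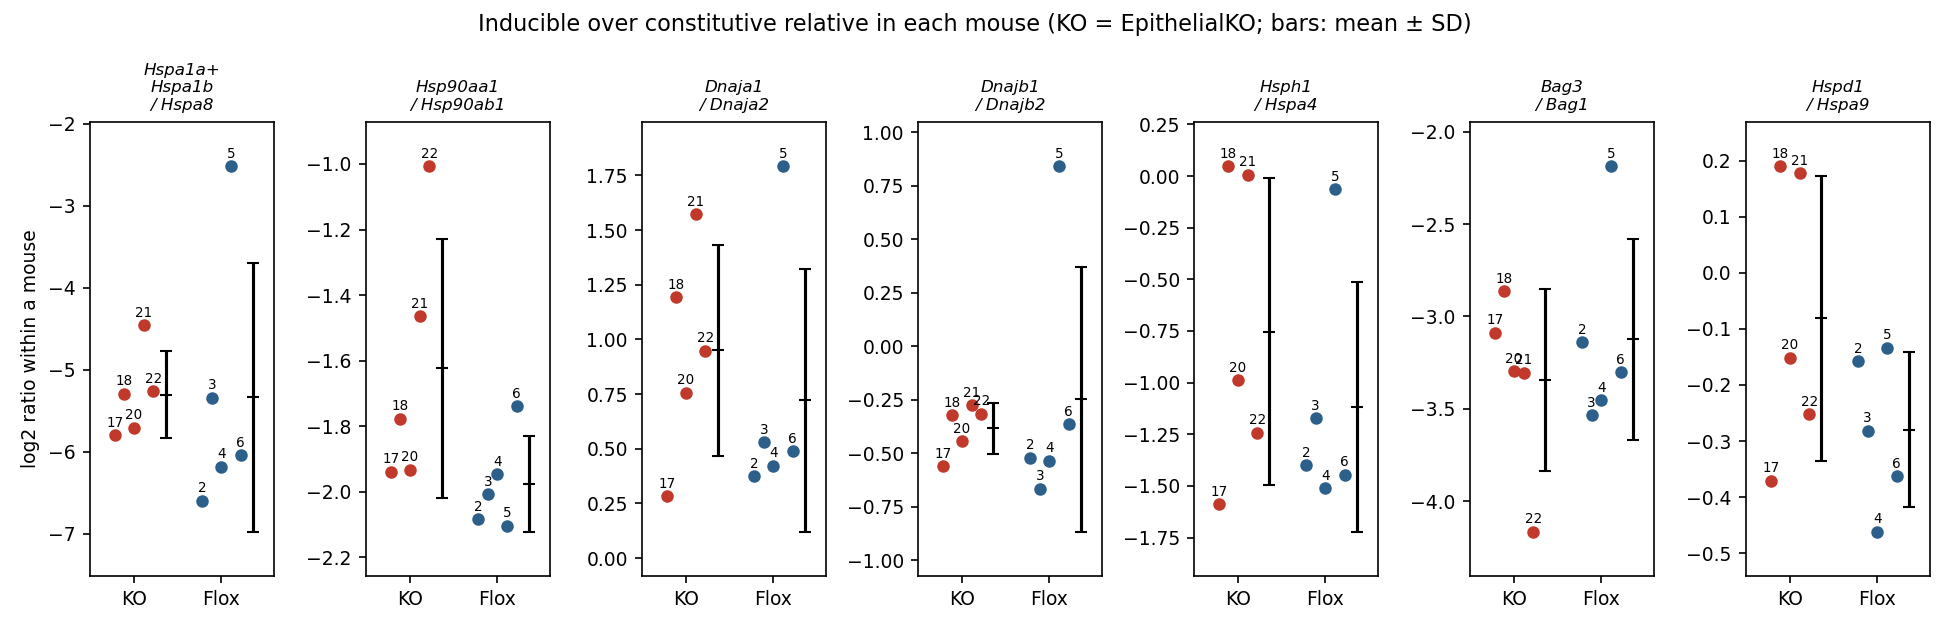
Log2 ratio of each inducible gene to its constitutive relative in every mouse, EpithelialKO left of Flox, for the 7 pairs; points are mice with their numbers and bars are means ± SD. Flox mouse 5 stands above the other Flox mice in the ratios of HSP70 (-2.52), Dnaja1 to Dnaja2 (1.79) and Dnajb1 to Dnajb2 (0.84), but not in that of Hsp90aa1 to Hsp90ab1 (-2.10).

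Leaving out Flox mouse 5 moved the inducible genes more than the constitutive ones. The median log2 fold change was then 0.52 for the inducible genes, all 18 of them positive, and 0.15 for the constitutive genes, 11 of 14 positive, beside 0.01 for all genes. At an unadjusted p of 0.05, 19 of the 32 genes were higher in EpithelialKO (15 inducible and 4 constitutive), against 7.57% of all genes. After adjustment 0 of the 32 passed, while 48 of 15496 genes did (0.31%). The lowest adjusted p were 0.0906 for Hspd1, with a log2 fold change of 0.51 ± 0.13, and 0.092 for Chordc1, with 0.61 ± 0.15. Flox mouse 5 was set aside because of its values in these genes, so the fit without it describes the other 9 mice and is no independent test. Flox mice 4 and 6, with high Xist counts unlike any EpithelialKO mouse, stayed in this fit, so sex class was not balanced. With all mice, Flox mouse 5 included, and sex class as a covariate the inducible median was 0.07. As all EpithelialKO mice were of the same class, that fit set them against Flox mice 2, 3 and 5. The mean log2 CPM of the inducible genes was 6.40, 6.46 and 7.48 in those Flox mice. It was 6.45, 7.17, 6.62, 7.34 and 6.71 in EpithelialKO mice 17, 18, 20, 21 and 22. A fit with sex class balanced and Flox mouse 5 left out is not given here.

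Other genes of protein folding were counted in lists, of which 0 members passed the adjusted test. The cytosolic chaperonin TRiC, which folds actin and tubulin, had positive log2 fold changes in 8 of 8 subunits (median 0.20), and 4 of them had an unadjusted p under 0.05, against the 5.87% above. Tcp1, the subunit with the lowest p, had 184, 190, 191, 233 and 247 CPM in EpithelialKO mice, against 167, 163, 159, 160 and 165 CPM in Flox mice (log2 fold change 0.36 ± 0.10, edgeR adjusted p = 0.145). Unlike in Hspa1a, Hspa1b or Dnajb1, Flox mouse 5 lay with its group in Tcp1. Over all 8 subunits, though, the summed CPM of Flox mouse 5 was 1269, the highest of the Flox mice (next 1198). The EpithelialKO sums ran from 1250 to 1491. The other cochaperones of HSP90 and HSP70 were positive in 13 of 16 (median 0.15), the other mitochondrial chaperones and proteases in 8 of 10 (median 0.15), and the other regulators and targets of HSF1 in 9 of the 11 tested (median 0.12). The chaperones of the endoplasmic reticulum were positive in 9 of 15 (median 0.07). Among these Hspa5 (BiP) averaged 674 ± 115 CPM in EpithelialKO and 532 ± 60.2 CPM in Flox lungs (adjusted p = 0.249), and Dnajb9 (ERdj4) averaged 54.1 ± 10.4 CPM in EpithelialKO and 68.9 ± 8.87 CPM in Flox lungs (adjusted p = 0.289).

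Values that moved with the mice are given beside these results. Immediate early genes such as Jun, which respond within minutes to handling and many other stimuli, were positive in 3 of 14 (median -0.15), and 0 passed the adjusted test. Their summed CPM was 1891, 1866, 1426, 1111 and 1169 in EpithelialKO mice, against 1482, 1783, 1094, 2400 and 1509 in Flox mice. Flox mouse 5 was thus highest in this sum too, whereas EpithelialKO mouse 21, high in the inducible genes, was among the lowest. Cirbp and Rbm3, cold-inducible RNA-binding proteins, were chosen after values were seen. Cirbp had 80.1, 36.3, 58.0, 34.1 and 49.4 CPM in EpithelialKO mice, against 48.3, 86.1, 53.3, 55.2 and 55.1 CPM in Flox mice. Its 2 lowest values were in EpithelialKO mice 18 and 21, and Flox mouse 5 was in mid-range. Rbm3 had 230, 127, 174, 124 and 275 CPM in EpithelialKO mice, against 107, 194, 118, 143 and 160 CPM in Flox mice. Its 2 lowest values were in Flox mice 2 and 4, and EpithelialKO mice 18 and 21 were the 2 lowest of their group. Within each group the 2 lowest mice were thus the same for both genes, while the order of the group means differed. Their log2 fold changes were -0.21 ± 0.23 for Cirbp and 0.37 ± 0.24 for Rbm3 (edgeR adjusted p = 0.764 and 0.574). The part of what moved these genes in the heat shock values was not tested.

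Cell type markers were summed as well, and 0 of those in the lists given here passed the adjusted test. The summed CPM of 4 endothelial markers ran from 1295 to 1705 in EpithelialKO and from 1672 to 2245 in Flox lungs, and 0 of 4 had a positive log2 fold change (median -0.41). Smooth muscle markers were positive in 0 of 5 (median -0.44), with sums from 261 to 459 CPM in EpithelialKO and from 345 to 450 CPM in Flox lungs. Positive values were found in 5 of 5 ciliated cell markers (median 0.42), 3 of 3 club cell markers (median 0.48) and 5 of 5 alveolar type 2 markers (median 0.25). The sums of the type 2 markers, the most abundant epithelial list, ran from 45759 to 57076 CPM in EpithelialKO and from 37890 to 45971 CPM in Flox lungs. Alveolar type 1 markers were positive in 2 of 4 (median -0.01) and macrophage markers in 3 of 4 (median 0.14). The negative macrophage marker, Marco, had the lowest adjusted p of all these markers (log2 fold change -0.74 ± 0.14, edgeR adjusted p = 0.0598). It averaged 15.2 ± 1.84 CPM in EpithelialKO and 25.4 ± 3.86 CPM in Flox lungs. The part of cell composition in the heat shock values was not tested.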

How the data were processed

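Whole-lung RNA of 10 mice was captured on oligo(dT) and primed with random hexamers, per the labels' protocols. The submitters' processing notes name cutadapt, HISAT2 and the build GRCm38, without versions. How reads were counted (tool, annotation, strand, reads with several matches) is not given in the sources used. The authors deposited whole-number counts per Entrez gene, unnormalized, with 1 column per mouse; 0 columns were left unmapped. Totals per mouse ran from 14983829 to 21224412 counts.

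The 32 heat shock genes, their division into classes and the other lists were chosen with earlier results of these data known. Symbols and coordinates came from the RefSeq table of GRCm38. The filterByExpr defaults kept 15301 of 27179 genes, counts were scaled by TMM, and groups were compared with the robust quasi-likelihood F test of edgeR 4.0.16 in R 4.3.3, with Benjamini-Hochberg adjustment over all genes tested; an adjusted p under 0.05 was called. A positive log2 fold change means a higher level in EpithelialKO, and CPM are after TMM. Log2 CPM of scores and ratios used a prior count of 2. The 7 ratios were compared by exact permutation over mice. P-values of edgeR set a group difference against the spread between these mice, and those of the ratios against permuted assignments of the mice. The gene test and the permutation test were tested on simulated data. Per-kilobase levels and shared 50-base windows used exons and transcripts of the GENCODE annotation of the same build. Values by mouse were given for genes with the lowest p in each direction and the widest ranges, and up to 2 genes were named per other list. Dnaja2, the 1 gene whose groups did not overlap, and Cirbp and Rbm3 were added after their values were seen.

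Alternatives were the Wald test of DESeq2 1.42.0 and its size factors, limma-voom (limma 3.58.1) with sample weights, no filter, a threshold of 0.1, each mouse left out, Flox mice 4 and 6 left out, sex class as a covariate, other class memberships, a prior count of 0.5, and medians in place of means.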

Additional observations from a re-analysis of the deposited data

Results flagged for a closer look

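Of 84 groups of 5 mice examined, 17 held a mouse whose gap to its nearest neighbour was large for the range of its group by Dixon's 95% limit, which chance passes in about 1 of 20 groups. In 16 of the 17 that mouse was Flox mouse 5, and since the genes vary together these are not separate events. No EpithelialKO group was among them. Flox mouse 5 had 122 CPM of Hspa1a (next Flox mouse 12.1), 191 CPM of Hspa1b (17.4), 162 CPM of Dnajb1 (54.2), 527 CPM of Dnaja1 (231), 113 CPM of Dnajb4 (69.1) and 198 CPM of Hsph1 (78.5). Among cochaperones it had 105 CPM of Bag3 (52.7), 115 CPM of Chordc1 (49.6) and 189 CPM of Stip1 (107). The constitutive genes Hspa4, with 207 CPM (177), and Hsf2, with 15.6 CPM (12.5), were also high in it, by smaller steps. Its mean log2 CPM over the inducible genes was 7.48 (next 6.46), and the inducible mean minus the constitutive mean was 0.79 (next -0.10). Its log2 ratios were 1.79 for Dnaja1 over Dnaja2 (next 0.53), 0.84 for Dnajb1 over Dnajb2 (next -0.36) and -0.063 for Hsph1 over Hspa4 (next -1.17). The exception was Bag1, with 604 CPM in Flox mouse 3 and 489 CPM in the next Flox mouse.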

How the results depend on the processing

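The number of heat shock genes past the adjusted threshold was 0 under every alternative run. The count over all genes, 6, became 38 at a threshold of 0.1, 279 with DESeq2's Wald test, 32 with limma-voom and sample weights, 34 with no filter, 0 without Flox mice 4 and 6 and 1 with sex class as a covariate. It ran from 0 to 48 as each mouse was left out, with 48 without Flox mouse 5 and 0 for each other mouse.

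The inducible median of 0.29 ran from 0.18 (without EpithelialKO mouse 21) to 0.52 (without Flox mouse 5). It was 0.50 with limma-voom and -0.11 for the narrower class of 7 genes. It was 0.07 both without Flox mice 4 and 6 and with sex class as a covariate. Those settings make nearly the same contrast, and both keep Flox mouse 5. The constitutive median ran from 0.09 to 0.15 as each mouse was left out. The difference of inducible minus constitutive means, 0.19, ran from 0.10 (without EpithelialKO mouse 21) to 0.39 (without Flox mouse 5). It was 0.04 with medians over genes, 0.01 without Flox mice 4 and 6 and 0.20 for the narrower class of 7 genes.

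Some log2 fold changes changed sign. Limma-voom works on log2 CPM and weights mice by their fit. With it the log2 fold changes were 0.98 for Hspa1a, 1.41 for Hspa1b, -0.11 for Hspb6, 0.13 for Dnajb1, 0.12 for Bag3, -0.013 for Cdc37 and 0.00050 for Hsf2. Without Flox mice 4 and 6 they were -0.040 for Hspb1, -0.044 for Dnajb2, -0.088 for Dnajb4 and -0.0034 for Hsf1. With sex class they were -0.040 for Hspb1, -0.046 for Dnajb2, -0.090 for Dnajb4 and -0.0047 for Hsf1. As each mouse was left out, Hspa1a ran from -0.97 to 1.34, Hspa1b from -0.83 to 1.82, Hspb6 from -0.17 to 0.16, Cryab from -0.032 to 0.19, Dnajb1 from -0.36 to 0.25, Dnajb4 from -0.040 to 0.26, Bag3 from -0.21 to 0.18, Cdc37 from -0.076 to 0.11, Hsf1 from -0.019 to 0.073 and Hsf2 from -0.088 to 0.027. The cause was not tested.

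As differences in medians the ratio of Dnajb1 to Dnajb2 was 0.20 and that of Bag3 to Bag1 was 0.0069. The ratio of summed Hspa1a and Hspa1b to Hspa8 was -0.48 without Flox mice 4 and 6. As each mouse was left out these ratios ran from -0.24 to 0.14, from -0.34 to 0.014 and from -0.28 to 0.74. No paired analysis was made because the labels give no pairing of the mice. DESeq2 gave no adjusted p for Hspa1a. With 5 mice a group, the range between mice limits what can be shown for the inducible genes.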
